A study of Mus musculus with 4 samples.

Results

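The regions described here are 1988 stretches of open chromatin that were read much more often in nuclei with natural killer (NK) cell and T cell RNA than in the other immune cells of the same mouse liver sort. They were taken from 142799 peaks of 1 library. Nuclei came from sorted liver cells of C57BL/6J mice that were CD45+ CD64- CD11c+, and each nucleus was read for RNA and, by transposase cutting (ATAC), for accessible DNA. D0 stands for 0 days, the control, and D5 for 5 days on chow that held DDC at 0.1%, a feed that injures the bile ducts. Each day was 1 library, so no test between days was possible and every difference between days was also a difference between 2 libraries. The mice were wild type, and the study's methods give male mice for its single-cell work. No source used here says how many animals went into a library.

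Members were chosen by a fixed rule on the D0 library. Nuclei with 1000 or more RNA molecules (UMIs) were scored by the summed UMIs of Ncr1, Txk, Il2rb, Cd3e and Cd3g. The 3604 nuclei with a sum of 3 or more are called NK/T nuclei, and the 8078 nuclei with a sum of 0 are called other nuclei. Cut sites were summed over each group in each peak and scaled to the number per 1000000 cut sites in peaks (CPM). A member had 60 or more cut sites in NK/T nuclei and a CPM there of at least 4 times the CPM in other nuclei plus 0.5. This rule kept 1.39% of the D0 peaks. At D5 the same marker sums gave 2875 NK/T nuclei and 20814 other nuclei, which played no part in the choice.

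NK cells are innate lymphocytes that kill stressed or infected cells with perforin and granzymes, and that read their targets through receptors such as NKp46, the product of Ncr1. T cells share much of this killing programme but recognise antigen through a receptor coupled to the CD3 chains, which signals through the kinases LCK, ZAP70 and TXK. The liver holds many of both, and mouse NK cells carry some CD11c, the surface protein used for this sort. Transcription factors of the T-box, RUNX and ETS families are well known regulators of these lymphocytes, while PU.1 and IRF8 are known for their part in dendritic cells and macrophages.

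The upstream sequences below belong to genes whose promoter lay in a member peak, and they were searched for the short words counted later. Each run is the 250 bases before a RefSeq start site (GRCm38.p6), 5′ to 3′ on the gene's strand. Capitals mark the RUNX word TGTGGTT, the T-box word GGTGTGA and the ETS word CAGGAAG on either strand, so that a match on the opposite strand shows in its reverse complement. Zap70, Tigit, Nkg7 and Xcl1 were the strongest such promoters of their gene lists, and Gzmb, Gzma, Ncr1 and Lck were added after their matches had been seen. The strongest of the transcription factor list, that of Lef1, held none of these words and is not shown.

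Zap70: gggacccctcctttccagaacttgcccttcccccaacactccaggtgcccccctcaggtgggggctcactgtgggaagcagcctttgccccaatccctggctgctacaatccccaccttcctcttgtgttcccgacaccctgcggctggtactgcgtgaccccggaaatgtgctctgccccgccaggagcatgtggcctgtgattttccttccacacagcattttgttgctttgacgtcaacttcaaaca
Tigit: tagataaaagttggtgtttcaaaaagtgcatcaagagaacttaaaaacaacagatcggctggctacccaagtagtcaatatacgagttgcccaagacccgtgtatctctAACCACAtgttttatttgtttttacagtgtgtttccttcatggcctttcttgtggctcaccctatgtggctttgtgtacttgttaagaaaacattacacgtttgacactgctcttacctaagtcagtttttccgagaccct
Nkg7: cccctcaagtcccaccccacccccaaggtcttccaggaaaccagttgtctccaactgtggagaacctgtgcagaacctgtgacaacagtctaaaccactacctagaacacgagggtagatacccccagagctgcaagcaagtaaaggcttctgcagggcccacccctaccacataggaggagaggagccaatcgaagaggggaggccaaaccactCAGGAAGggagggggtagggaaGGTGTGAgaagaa
Xcl1: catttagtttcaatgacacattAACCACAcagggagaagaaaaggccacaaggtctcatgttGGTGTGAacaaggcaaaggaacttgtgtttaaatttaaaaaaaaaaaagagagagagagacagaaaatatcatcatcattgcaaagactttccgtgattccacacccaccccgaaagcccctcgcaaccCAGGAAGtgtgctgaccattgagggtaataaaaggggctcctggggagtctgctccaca
Gzmb: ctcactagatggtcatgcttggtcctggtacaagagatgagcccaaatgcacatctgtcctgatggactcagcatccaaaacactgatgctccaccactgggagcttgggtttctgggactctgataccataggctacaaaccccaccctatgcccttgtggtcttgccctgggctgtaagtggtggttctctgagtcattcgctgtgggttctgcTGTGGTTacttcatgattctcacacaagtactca
Gzma: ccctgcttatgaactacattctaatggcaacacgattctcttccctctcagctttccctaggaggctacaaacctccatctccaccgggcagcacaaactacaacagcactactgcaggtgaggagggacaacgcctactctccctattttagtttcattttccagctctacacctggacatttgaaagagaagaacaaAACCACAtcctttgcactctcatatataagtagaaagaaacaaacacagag
Ncr1: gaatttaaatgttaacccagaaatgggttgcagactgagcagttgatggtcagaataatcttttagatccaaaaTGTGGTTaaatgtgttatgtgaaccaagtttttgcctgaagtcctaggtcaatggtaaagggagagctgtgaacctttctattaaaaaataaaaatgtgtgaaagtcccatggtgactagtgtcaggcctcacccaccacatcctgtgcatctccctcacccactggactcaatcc
Lck: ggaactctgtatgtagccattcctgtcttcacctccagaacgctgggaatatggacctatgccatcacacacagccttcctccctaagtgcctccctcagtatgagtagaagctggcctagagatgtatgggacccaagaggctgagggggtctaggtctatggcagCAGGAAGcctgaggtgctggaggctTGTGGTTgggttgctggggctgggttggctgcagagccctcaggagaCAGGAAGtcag

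Zap70 lies on the plus strand at chr1:36761548-36761797 and its window held none of the 3 words. Tigit lies on the minus strand at chr16:43664185-43664434 with a RUNX word that begins 141 bases before the start. Nkg7 lies on the plus strand at chr7:43436888-43437137 with ETS and T-box words that begin 35 and 13 bases before the start. Xcl1, at chr1:164935523-164935772 on the minus strand, was the only one of the 8 windows with all 3 words. Gzmb (chr14:56262335-56262584, minus strand), Gzma (chr13:113100982-113101231, minus strand) and Ncr1 (chr7:4337465-4337714, plus strand) each held 1 RUNX word, which began 34, 51 and 176 bases before the start. Lck (chr4:129573642-129573891, minus strand) held a RUNX word at 58 bases with an ETS word on each side, at 83 and 11 bases.

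The libraries held 16260 and 27873 called barcodes at D0 and D5, with 215252467 and 239039209 counts in peaks, and 591 barcode sequences occurred in both. Of 16 NK and T cell genes outside the rule, 15 were higher in NK/T than in other nuclei at D0 and 16 at D5; Il7r was the exception, at 104 against 106 CPM of RNA. NK/T nuclei were deeper than other nuclei at D0, with medians of 2981 against 1845 UMIs and 15062 against 9440 cut sites, and at D5, with 3546 against 2805 UMIs and 8738 against 7460 cut sites. Without the nuclei at a doublet score of 0.2 or more they had fewer UMIs, 1453 against 1758 at D0 and 1834 against 2595 at D5, and 9281 against 9143 and 6722 against 7162 cut sites. Many NK/T nuclei also carried RNA of other cells. At D0, 45.03% of NK/T nuclei had such a doublet score, against 13.0% of other nuclei, and 51.0% met the marker rule of a dendritic cell-like, macrophage-like or B cell-like class. At D5 these shares were 51.0% against 21.0%, and 42.9%. In NK/T nuclei 31 dendritic cell and macrophage genes still summed to 19667 CPM at D0 and 27061 CPM at D5, against 30235 and 39305 CPM in other nuclei, with none at 0. Doublets were not removed by the rule, so the main results are also given without the nuclei at that score or without those of another class.

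The values that chose the members are given as a description. Members had 206 to 3537 cut sites in NK/T nuclei at D0, with a median of 724, so the limit of 60 left out none that passed the fold. The median member stood at 8.11 CPM in NK/T nuclei and 0.909 CPM in other nuclei. CPM ratios, with 0.5 added to the other nuclei, ran from 4.00 to 14.6 around a median of 5.204. Just inside the threshold lay peaks near Btg1, Gvin1 and Gm32515 at 4.003 to 4.004, and just outside it peaks near Acyp2, Sp4 and Dzank1 at 3.997. With the groups exchanged, no D0 peak met the rule. Without the nuclei at the doublet score, 22 did so at D0 and 9950 of the D5 peaks at D5, where 0 did with all nuclei. At D0 4231 peaks then met the rule itself, including all 1988 members.

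Of 35 genes of NK cell receptors and adaptors, 19 were nearest to at least 1 member, with 45 members in all. By comparison, 1351 of the 32272 genes with a start site were nearest to a member. The strongest was the peak at chr15:78494815-78495693, which overlapped the stretch of start sites listed for Il2rb, the receptor beta chain shared by interleukin-2 and interleukin-15. It stood at 28.2 CPM in NK/T and 2.58 CPM in other nuclei at D0, and at 38.2 and 1.10 CPM at D5. The D5 log2 ratio was 5.11, with an exact binomial interval of 4.81 to 5.45 that, like all ratio and CPM intervals here, covers counting error only. Il2rb is 1 of the 5 genes that defined the nuclei, as is Ncr1. The peak over the start of Ncr1 (chr7:4337218-4338110) stood at 12.4 and 0.626 CPM at D0 and at 16.03 and 0.392 CPM at D5. Tigit, an inhibitory receptor gene, had its member at chr16:43663873-43664749, with 23.9 and 2.94 CPM at D0 and 35.2 and 1.61 CPM at D5. Crtam, an adhesion receptor gene of activated NK and T cells, had a member at chr9:40993799-40994737 at 14.6 and 0.958 CPM at D0 and at 22.4 and 0.714 CPM at D5. Klrc1, which encodes the NKG2A chain, had its strongest member 1130 bases from the start, at 12.1 and 1.71 CPM at D0 and 15.1 and 1.71 CPM at D5. The Klrb1b member, at chr6:128823937-128824751 with 10.7 and 0.405 CPM at D0, overlapped no D5 peak. At D5, which the choice of peaks did not use, the NK/T nuclei stood above the other nuclei at each of these with a D5 value.

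Of 18 cytotoxic effector genes, 10 were nearest to a member, with 27 members between them. Nkg7, a granule protein gene, had the highest level of this list, 30.6 CPM in NK/T and 3.18 CPM in other nuclei at D0 and 37.7 and 2.43 CPM at D5, at chr7:43436361-43437196. The peak over the start of Gzmb, which encodes granzyme B, lay at chr14:56261842-56262780 and had a D0 ratio of 14.3, the third highest of all members. It stood at 22.4 and 1.07 CPM at D0 and at 29.7 and 0.636 CPM at D5. In D5 cDC1-like, pDC-like and cDC2-like nuclei (conventional and plasmacytoid dendritic cells by marker RNA) this peak stood at 0.207, 0.369 and 0.800 CPM, and in macrophage-like nuclei at 0.912 CPM. Prf1, which encodes perforin, had 22.0 and 2.43 CPM at D0 and 24.0 and 1.47 CPM at D5, and Ifng, the interferon gamma gene, had 20.1 and 1.72 CPM at D0 and 20.8 and 0.642 CPM at D5. Fasl, the death ligand gene, had 16.1 and 1.20 CPM at D0 and 18.4 and 0.648 CPM at D5. Serpinb9, which encodes an inhibitor of granzyme B, had the least marked D5 ratio of the 6 named genes of this list, with a log2 ratio of 2.44 (2.23 to 2.65) at chr13:33001072-33001994. This peak stood at 21.1 CPM in D5 NK/T nuclei and at 10.4 CPM (8.01 to 13.0) in Ccr7+ dendritic cell-like nuclei.

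Of 26 genes of the T cell receptor complex and its signalling, 12 were nearest to a member, with 28 members. Neither Cd3d, Cd3e nor Cd3g was among them. Sh2d2a, which encodes an adaptor that binds LCK, had the highest level, 28.7 and 2.42 CPM at D0 and 43.0 and 1.27 CPM at D5, at chr3:87846354-87847242. Txk had 2 promoter windows in 2 different members, and the stronger, at chr5:72752355-72753256, stood at 15.8 and 2.14 CPM at D0 and at 16.5 and 1.37 CPM at D5. The stronger of 2 Lck members (chr4:129573171-129574039) was close to the threshold, with a D0 ratio of 4.32, and stood at 2.15 CPM in the D5 other nuclei and 4.80 CPM in D5 pDC-like nuclei against 15.9 CPM in NK/T nuclei. The promoter peak of Zap70 at chr1:36761375-36762267 stood at 17.4 and 1.07 CPM at D0. A second Zap70-nearest peak of like strength lay 44987 bases away inside the body of Tmem131 (chr1:36806785-36807664, 17.5 and 2.71 CPM at D0).

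Of 27 transcription factor genes, 14 were nearest to a member, with 45 members. Of these 14 genes, 5 had a member within 2 kb of a start site, as did 304 of all 1351 nearest genes. Bcl11b, a zinc finger factor of the T cell and innate lymphocyte lineages, had 10 members, the most of any gene. The strongest lay 65 bases from the start (chr12:108003667-108004589), with 14.8 and 0.835 CPM at D0 and 16.8 and 0.291 CPM at D5. Tbx21, which encodes T-bet, had 5 members, and its strongest (chr11:97103781-97104541, 10790 bases away) stood at 22.4 and 3.25 CPM at D0. The D5 peak matched to it covers a different interval (chr11:97103527-97104465). That D5 peak had 5.16 CPM in the D5 other nuclei against 30.8 CPM in NK/T nuclei. Stat4, the interleukin-12 signal transducer gene, had a member inside the gene body 26489 bases from the start, at 19.8 and 1.49 CPM at D0 and 24.6 and 0.589 CPM at D5. Rora, a nuclear receptor gene, had 7 members, led by one at 26.4 and 3.25 CPM at D0 and 33.2 and 1.31 CPM at D5. Tcf7, which encodes TCF-1, had a member 16008 bases away at 19.1 and 1.70 CPM at D0. The strongest of 4 Bach2 members, 111383 bases from the start, stood at 22.7 and 2.52 CPM, while Bach2 RNA was 348 CPM in NK/T and 337 CPM in other nuclei at D0.

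Of 23 cytokine, chemokine and receptor genes, 10 were nearest to a member, with 18 members. Tnfrsf9, which encodes 4-1BB, led this list with 29.3 and 5.75 CPM at D0 and 40.0 and 4.19 CPM at D5 (chr4:150924097-150924913). Xcl1, the chemokine gene whose product binds XCR1 on cDC1, had 23.4 and 3.19 CPM at D0 and 28.2 and 1.45 CPM at D5. Il12rb2, an interleukin-12 receptor gene, had 6 members, and its strongest stood at 20.5 CPM in NK/T and 0.321 CPM in other nuclei at D5 (chr6:67347766-67348684). Cxcr6 had a member over its start (chr9:123806019-123806871) at 7.19 and 0.712 CPM at D0, and a stronger one inside Fyco1, 7497 bases from the start, at 20.5 and 2.94 CPM. Of all 32272 genes with a start site, 1351 were nearest to a member. The contrast lists, too short to show a lower share, gave 2 of 31 dendritic cell and macrophage and 0 of 7 B cell genes. The first of them, Irf8, had its strongest member 19336 bases from the start (chr8:120716173-120717022), at 24.3 and 3.66 CPM at D0 and 28.7 and 2.87 CPM at D5, where the 5 dendritic cell-like and macrophage-like classes stood at 1.53 CPM (cDC1-like) to 6.84 CPM (macrophage-like). Itgax, which encodes CD11c, had a member 9108 bases away (chr7:128119559-128120439) at 13.3 and 2.00 CPM at D0 and 16.7 and 1.23 CPM at D5, where these classes stood at 1.01 CPM (cDC2-like) to 1.40 CPM (Ccr7+ dendritic cell-like). Irf8 RNA was lower in NK/T than in other nuclei at D0, at 850 and 1012 CPM, and Itgax RNA was at 249 and 231 CPM.

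The 5 lists together held 129 genes, among them the 5 rule genes, which were not left out here. Of these 5, Txk was nearest to 8 members and Il2rb to 5. Of all members, 10.2% (202) lay within 50 kb of a start site of a list gene, against 1.52% of all D0 peaks. Most members thus had no list gene within that distance. The highest D0 ratio, 14.6, belonged to a peak 8990 bases from Man2b2 (chr5:36839643-36840478), at 28.4 and 1.45 CPM at D0 and 38.6 and 0.559 CPM at D5. RNA of Man2b2, a lysosomal mannosidase gene, was 9.55 and 7.93 CPM at D0. Of the other 9 members with the highest ratios, only that of Gzmb lay over the start of a gene with any RNA counted. The peak inside Tmprss6 (chr15:78456976-78457880, 23.4 and 1.25 CPM at D0) lay 35.9 kb from Il2rb, and the peak nearest to Spag16 (chr1:69768503-69769421, 12.3 and 0.540 CPM at D0) lay 81.3 kb from Ikzf2, which encodes Helios. The peak at Trbd1, a diversity segment of the T cell receptor beta locus (chr6:41532302-41533230, 23.4 and 1.47 CPM at D0), lay 4.99 kb from Trbc1. Peaks near Man2b2, Gm29296, Trim52 and Unc79 had no list gene within 500 kb. These neighbouring genes were looked up after the members had been seen.

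Of the 1351 nearest genes, 376 had 2 or more members, 135 had 3 or more and 35 had 5 or more, counts that were not set against those of all peaks. The densest stretch of 200 kb was chr9:32882861-33080973, with 15 members among 32 D0 peaks over the long noncoding genes Gm27162 and Gm27166, whose near end lay 186 kb from Ets1. All 15 met the rule at D5 as well. The Gimap cluster, a family of lymphocyte GTPases, held 14 members among 39 peaks (chr6:48664376-48804096), and the stretch around Bcl11b held 11 among 26 (chr12:107921289-108098861). In 2 stretches most peaks were members, 10 of 14 around Gzmb and Gzmc (chr14:56234307-56297439) and 9 of 10 around Gzma (chr13:113061548-113135394). Chromosome X had the lowest share among autosomes and X, 11 members of 3530 peaks (0.312%), and chromosomes 9 and 6 had the highest, 1.91% and 1.89%.

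Members as chosen lay farther from start sites than all peaks of the library. The peak table gives each gene's start sites as one span, and 38.9% of genes have a span longer than 1 base. Counted to the nearest edge of that span, 20.4% of members (exact interval 18.7% to 22.3%) were within 2 kb, against 26.0% of all D0 peaks, and the median distance was 13947 against 11410 bases. The 188 members at a fold of 8 had 25% within 2 kb (19.0% to 31.8%), an interval that holds the share of all peaks. Counted only to either end of the span, the shares were 11.1% and 18.3%. At least 150 bases of a RefSeq promoter window were covered by 3.07% of members (61 peaks; 2.36% to 3.92%) and by 8.31% of all D0 peaks. The centre of 56.4% of members lay in a protein-coding gene body, close to the 55.6% of all peaks. Exons and introns were not separated, since no exon annotation was used here. The width was also close, with a median of 887 bases for members and 873 bases for all.

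The RUNX, T-box and ETS words were more frequent in promoters at members than in other open promoters. Of 67 RefSeq promoter windows at members, which belong to 62 gene symbols, 14 held the RUNX word (20.9%, exact interval 11.9% to 32.6%). The share was 3.77% of the 14679 windows at any D0 peak and 4.39% of all 32817 windows. Overlapping windows of the same gene were counted apart, so the RUNX word of Ncr1 counts more than once, and the intervals take windows as independent. The T-box word was in 11.9% of the member windows (5.30% to 22.2%) and 2.75% of those at any peak, and the ETS word in 32.8% (21.9% to 45.4%) and 10.8%. The KLF and SP word GGGNGGGG ran the other way, with 20.9% (11.9% to 32.6%) against 44.4% at any peak. Its share over all windows, 30.8%, lay within the member interval. Neither the PU.1 word GAGGAAGT nor the NFkB word GGGANTTCC occurred in a member window, where the exact interval reached 5.36% (3 counts of 67 would be 4.48%), against 3.04% and 1.96% at any peak. For 6 other words the interval of the member share held the share at any peak: the TCF and LEF word CTTTGAA, the STAT word TTCNNNGAA, the GATA word AGATAA, the ETS and IRF composite GGAANNGAA, the CTCF word CCACNAGG and, narrowly, the AP-1 word TGANTCA, at 10.4% with 4.31% to 20.4% against 4.61%. Both strands were searched, and the ETS, PU.1 and composite words can overlap. Member windows also differed in composition, with a median of 49.2% GC and 3 CpG, against 60% and 15 at any peak and 52.4% and 6 over all windows. Its part in these shares was not tested, and the 250 bases of a promoter say nothing of the members that cover no such window.

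**Figure D1:**
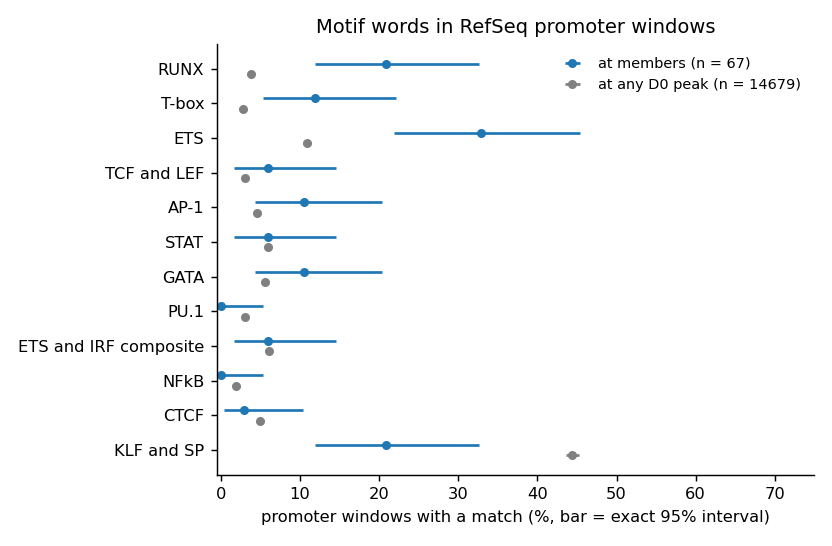
Share of RefSeq promoter windows (x axis, percent) that hold each of 12 motif words (y axis), for the 67 windows at members (blue) and the 14679 at any D0 peak (grey), with exact 95% intervals. RUNX, T-box and ETS words sit to the right at members, and the KLF and SP word to the left.

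Nearly all members were found again as peaks at D5, where reads were called into peaks separately. Members were stronger in D0 NK/T nuclei than all D0 peaks, with medians of 8.11 and 2.45 CPM, and peaks of like strength were not compared. Of 1988 members, 1937 (97.4%, 96.6% to 98.1%) overlapped a D5 peak by at least 1 base, against 89.2% of all D0 peaks. Of these, 1893 (97.7%, 97.0% to 98.3%) met the same rule in the D5 nuclei, against 3.03% of all matched peaks. All 44 that missed it had 60 or more cut sites in D5 NK/T nuclei but fell short of the fold. The median log2 ratio of NK/T over other nuclei was 4.16 over the matched members and -0.30 over all matched peaks, and each of the 1937 had a D5 log2 ratio of at least 1, as against 9.57% of all matched peaks. Without nuclei at the doublet score the medians were 5.01 and -0.75. Across the 1937 members the D0 and D5 log2 ratios had a Pearson r of 0.76 and a Spearman rho of 0.78, as a description over peaks that share 2 libraries. The D5 median also exceeded the D0 median of 3.10 for the same members, and median levels differed on both sides of the ratio, from 8.11 CPM over the 1988 members at D0 to 9.58 CPM over the 1937 matched ones at D5 in NK/T nuclei, and from 0.909 to 0.517 CPM in other nuclei. In the other direction, 3955 D5 peaks met the rule, of which 1895 overlapped a member.

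**Figure D2:**
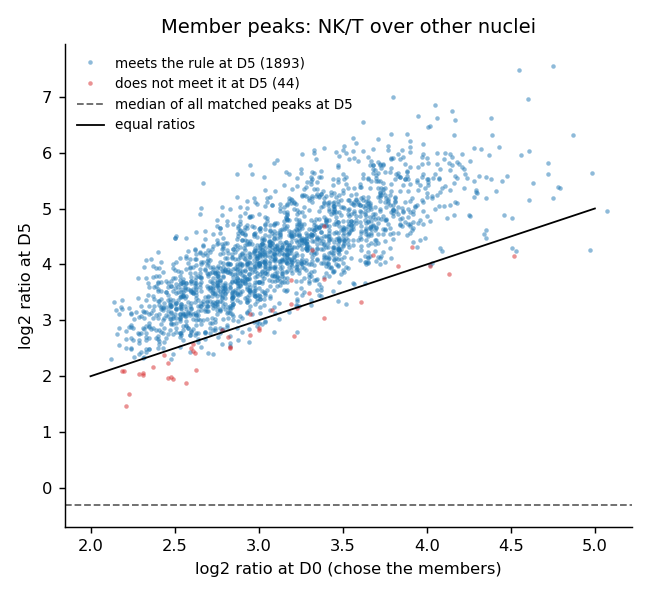
Log2 ratio of CPM in NK/T over other nuclei at D0 (x axis, the contrast that chose the members) and at D5 (y axis) for the 1937 members with a D5 peak. Most points lie above the line of equal ratios, all lie above the dashed median of all matched peaks at -0.30, and the 44 members in red did not meet the rule at D5.

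At D5 no dendritic cell or macrophage class reached the NK/T level at a matched member. In D5 nuclei with a marker sum of 0, the median member stood at 0.496 CPM in 2584 cDC1-like nuclei, 0.460 CPM in 6722 cDC2-like nuclei and 0.492 CPM in 1798 pDC-like nuclei. It stood at 0.441 CPM in 1540 Ccr7+ dendritic cell-like and at 0.456 CPM in 786 macrophage-like nuclei. The medians of all matched peaks in these classes were 2.28 to 2.73 CPM. In NK/T nuclei the median member stood at 9.58 CPM, and at 17.3 CPM without the nuclei at the doublet score. Of 1937 members, 5 reached at least 50% of the NK/T level in one of the 5 classes, and 0 reached the full level. Against NK/T nuclei without the doublet score, 0 reached 50%.

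**Figure D3:**
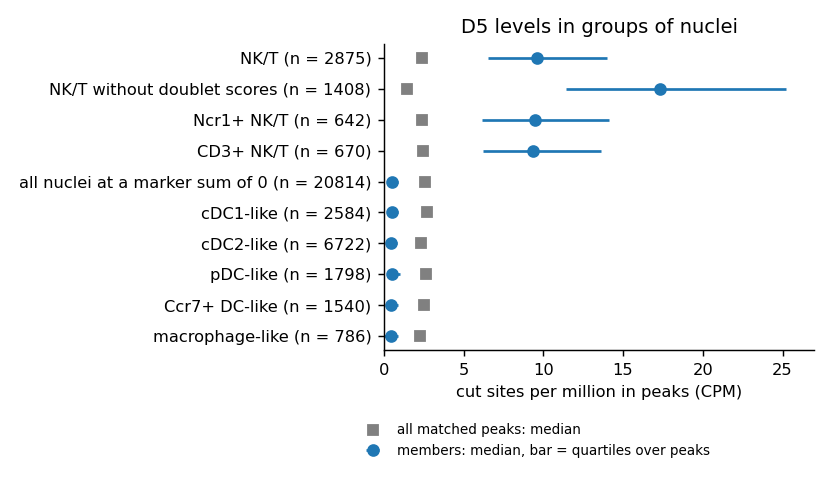
CPM in D5 groups of nuclei (y axis, with the number of nuclei), as the median over 1937 members with quartiles over peaks (blue) and the median over all matched peaks (grey). Members stand at 9.35 to 17.3 CPM in the 4 NK/T groups and at 0.441 to 0.517 CPM in the 6 groups with a marker sum of 0.

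Single nuclei showed the same separation. Members took up a median of 0.170% of a nucleus' cut sites in peaks at a marker sum of 0 and 2.20% in NK/T nuclei at D0. These are the D0 groups whose contrast chose the members, so a gap between them was set by the rule. At D5, in nuclei that the rule had not used, the medians were 0.129% and 2.49%. Only nuclei with 1000 or more cut sites were counted here. NK/T nuclei were spread over 2 humps on both days. Those at or over the doublet score had medians of 1.59% at D0 and 1.72% at D5, and those under it 3.76% and 4.34%. NK/T nuclei that met another class had medians of 1.63% and 1.67%. A share of 1% or more occurred in 2.08% of D0 nuclei and 0.378% of D5 nuclei with a marker sum of 0, and in 92.0% and 94.3% of those with a sum of 5 or more.

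**Figure D4:**
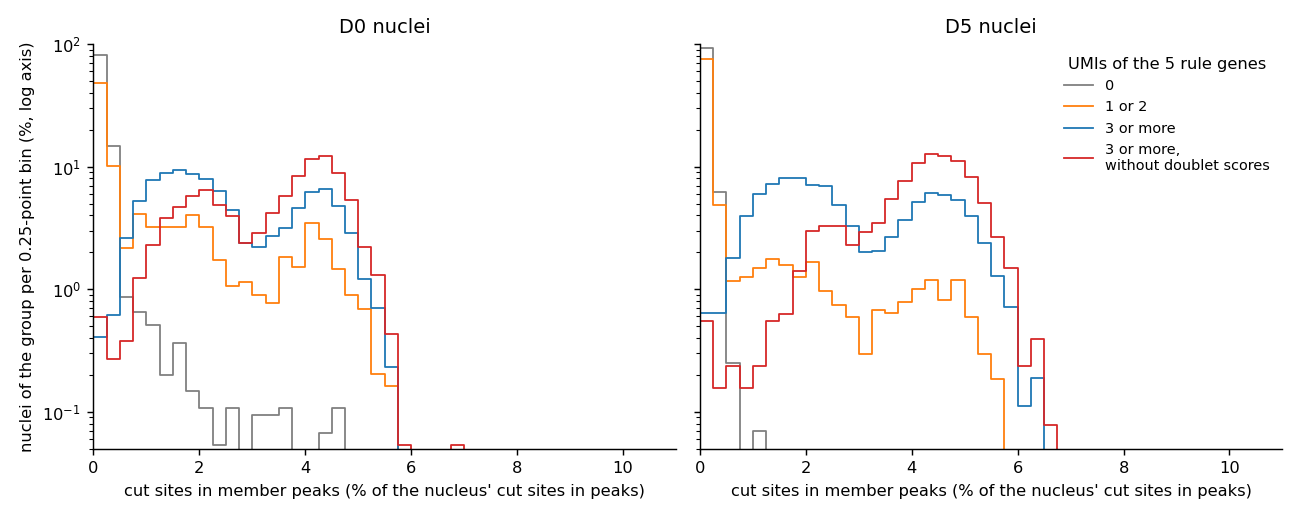
Share of a nucleus' cut sites that fell in member peaks (x axis, percent) against the percent of nuclei of each group per bin (y axis, log scale), at D0 and D5, by UMIs of the 5 rule genes. Nuclei at 0 (grey) gather at the left edge, as do 48.2% (D0) and 74.9% (D5) of those at 1 or 2 (orange), which also trail to the right, NK/T nuclei (blue) show 2 humps, and the right one holds most nuclei under the doublet score (red).

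NK cells and T cells could be told apart only in part. Of the NK/T nuclei at D5, 642 had Ncr1 UMIs and none of Cd3d, Cd3e or Cd3g (Ncr1+ nuclei), and 670 had 2 or more CD3 UMIs and no Ncr1 UMI (CD3+ nuclei). At D0 there were 1095 and 495. Trac, the T cell receptor alpha constant gene, was at 4.36 and 57.6 CPM in Ncr1+ and CD3+ nuclei at D5, but Klrb1c, which encodes NK1.1, was at 264 and 231 CPM and Gzmb at 831 and 1653 CPM. The CD3+ nuclei therefore carried NK genes too and are not called T cells here. At members the log2 ratio of Ncr1+ over CD3+ nuclei had a median of 0.03 at D5 over the 1864 members with 30 or more fragments (2 cut sites make 1 fragment) in both groups together, against 0.00 over all matched peaks. Among them 53 were at least 2-fold higher in Ncr1+ nuclei (2.84%; 1.23% of all matched peaks with enough fragments) and 57 in CD3+ nuclei (3.06%; 1.29%).

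These differences were partly seen at D0 as well. Of the 53 members higher in Ncr1+ nuclei at D5, 49 had a ratio of the same sign at D0 (92.5%), and 9 reached 2-fold. Of the 57 higher in CD3+ nuclei, 46 had the same sign (80.7%), and 12 reached 2-fold. Over all matched peaks with such a D5 difference the same-sign shares were 69.8% and 66.2%. The largest difference towards Ncr1+ nuclei was at a peak inside Gm36228 (chr10:24953746-24954589), nearest to Gm36172, with log2 3.50 (2.05 to 7.15) at D5 and 0.67 at D0. A peak in the keratin gene Krt83 had 2.42 (1.51 to 3.56) and 1.14. Towards CD3+ nuclei the largest were at Gm14377, in the body of Ptpn5 (chr7:47111444-47112299), with -2.58 (-4.10 to -1.34) at D5 and -1.49 at D0, and 2489 bases from Agfg1 (chr1:82836124-82836994), with -2.54 (-3.81 to -1.45) and -1.98. The named peaks of the NK receptor and killing genes differed less, with Ncr1 at 0.60 (0.10 to 1.10) and Gzmb at 0.07 (-0.29 to 0.42). The Trbd1 peak was higher in Ncr1+ than in CD3+ nuclei on both days, at 1.01 (0.63 to 1.39) and 0.62. By list, 0 of 41 tested members near NK receptor genes, 0 of 27 near T cell receptor genes and 0 of 18 near cytokine and chemokine genes were 2-fold apart in either direction. Of 25 near cytotoxic genes, 1, a peak nearest to Gzmb, was higher in CD3+ nuclei, and of 42 near transcription factor genes 1 was higher in Ncr1+ and 4 in CD3+ nuclei. The lists were not tested against all peaks. In D5 nuclei outside the other classes, the median log2 ratio over members was -0.04. There, 39 and 53 of 1434 members were 2-fold higher in Ncr1+ and CD3+ nuclei (2.72% and 3.7%, against 1.94% and 1.38% of all peaks). Without the nuclei at the doublet score, 53 and 49 of 1249 members were 2-fold higher in Ncr1+ and CD3+ nuclei at D5 (4.24% and 3.92%; 2.03% and 1.27% of all peaks), and 84 and 37 of 1931 at D0 (4.35% and 1.92%; 2.12% and 1.05%). With all nuclei at D0 it was 22 and 21 of 1988 (1.11% and 1.06%; 1.28% and 0.84%), where the share towards Ncr1+ nuclei lay below that of all peaks.

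**Figure D5:**
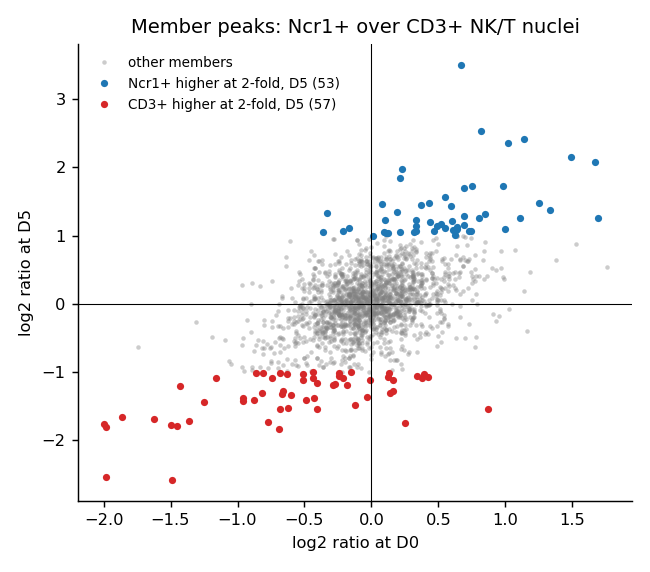
Log2 ratio of Ncr1+ over CD3+ NK/T nuclei at D0 (x axis) and D5 (y axis) for the 1864 members with 30 or more fragments at D5. The 53 members in blue and the 57 in red were at least 2-fold apart at D5, and most of them lie on the same side of 0 at D0.

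Members stood on the whole slightly higher in the D5 than in the D0 NK/T nuclei, where the median of all peaks stood lower. The median log2 ratio of D5 over D0 was 0.20 over 1937 members and -0.17 over all matched peaks. At 2-fold or more, 20 members were higher at D5 (1.03%; 0.628% of all matched peaks with 30 or more fragments) and 0 were lower (6.94% of all). Without the nuclei at the doublet score the median was 0.50, with 137 members higher (7.07%; 2.16% of all peaks) and 1 lower (0.0516%; 19.7%). In NK/T nuclei outside the other classes it was 0.11, with 20 higher (1.03%, below the 1.31% of all peaks) and 3 lower (0.155%; 3.63%). In Ncr1+ nuclei alone 44 members were higher and 23 lower (2.27% and 1.19%, against 1.65% and 6.33% of all peaks). In CD3+ nuclei alone it was 31 and 13 (1.64% and 0.687%, against 1.32% and 2.86%). The size of this shift thus depended on which nuclei were kept. The highest was a peak 473 bases from Gm20275 (chr9:59941550-59942425), at 4.66 CPM at D0 and 15.7 CPM at D5, a log2 ratio of 1.75 (1.50 to 2.02). It was 1.78 in Ncr1+ and 1.62 in CD3+ nuclei. A peak 4575 bases from Ikzf2 (chr1:69691820-69692678) stood at 4.94 and 13.0 CPM, with 1.40 (1.14 to 1.67), and Ikzf2 RNA in NK/T nuclei was 123 and 239 CPM. A peak in Rbl2, a retinoblastoma family gene, stood at 6.60 and 16.8 CPM, with 1.35 (1.12 to 1.59). The lowest was a peak 9959 bases from Il21r (chr7:125592865-125593535), at 18.1 CPM at D0 and 9.48 CPM at D5, a log2 ratio of -0.93 (-1.17 to -0.70), with -1.09 in Ncr1+ and -1.22 in CD3+ nuclei. The D5 peak matched to it covered less than 50% of the member, so these values belong to different intervals. Next lowest, with nearly the same interval on both days, was a peak 81191 bases from N6amt1 at 4.36 and 2.28 CPM, with -0.92 (-1.45 to -0.46). Il21r RNA in NK/T nuclei was 120 and 137 CPM at D0 and D5.

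The genes nearest to members more often had higher RNA in NK/T nuclei than other genes did. Rule genes were left out here, and genes needed 20 or more UMIs over both groups. At D0, 271 of 961 nearest genes (28.2%) had RNA at least 2-fold higher in NK/T nuclei, against 4.07% of all genes, and 1 had it 2-fold lower, against 0.338%. At D5 it was 307 of 960 (32.0%), against 4.98%, and 0 lower, against 0.0256%. The share was greater for genes with a member within 2 kb, 46.7% at D0 and 51.6% at D5, and for genes nearest to 3 or more members, 64.6% and 69.4%. Over all tested genes of each list, whether or not nearest to a member, the 2-fold at D0 was passed by 18 of 23 tested T cell receptor genes, 25 of 33 NK receptor genes, 11 of 14 cytotoxic genes, 14 of 25 transcription factor genes and 12 of 21 cytokine and chemokine genes. These lists were chosen as NK and T cell genes, so their RNA says nothing about members. None of the 31 dendritic cell and macrophage genes passed it, and 5 were 2-fold lower. Gzmb RNA was 1011 CPM in NK/T and 149 CPM in other nuclei at D0 and 1283 and 64.6 CPM at D5. Skap1, which encodes an adaptor of T cell receptor signalling, had RNA of 406 and 23.1 CPM at D0. RNA of these genes was thus also counted in other nuclei, and how much of it was free RNA in the droplets was not tested.

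RNA varied widely among genes with many members. Among the 35 genes with 5 or more members, Bcl11b RNA was 39.6 and 1.82 CPM and Cd226 RNA, for the activating receptor DNAM-1 with 8 members, 229 and 38.9 CPM at D0. Zmat4, a zinc finger gene with 7 members, had 72.8 and 3.03 CPM, and Atp8a2, a phospholipid flippase gene with 6, had 148 and 6.995 CPM. In contrast, Trim52 with 6 members had 0.0562 and 0.0551 CPM, and Gm15870 with 6 had 0 CPM in both groups. Klrg1, a receptor gene of mature NK and effector T cells, had 5 members but RNA of 3.99 and 0.386 CPM at D0. Inpp4b, a phosphoinositide phosphatase gene with 6 members, and Setbp1, a nuclear protein gene with 6, had RNA of 347 and 224 CPM and of 259 and 192 CPM at D0, below a 2-fold difference, but of 271 and 93.9 CPM and of 233 and 88.7 CPM at D5, above it.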

How the data were processed

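Both layers of 2 libraries were used, RNA and ATAC of D0 and D5 nuclei. The authors made the deposited tables with Cell Ranger ARC 2.0.2 on mm10, per the submitters' processing notes, and the values are whole-number counts, RNA UMIs per gene and cut sites per peak. Of the peak entries of all barcodes, called or not, 70.4% at D0 and 75.1% at D5 were equal to 2, since both ends of a fragment were counted, so intervals were taken on fragments. Peaks were called in each library alone, and the reference tables used (GRCm38.p6) have the same coordinates as mm10. The D5 joint table came without barcodes, and its columns were joined to the RNA table by identical counts over all genes, which matched each of 27873 nuclei uniquely.

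Counts were summed over nuclei and scaled to the number per 1000000 counts of the group (CPM). A log2 ratio has 0.5 fragments added to each side, RNA ratios have 1 CPM added, and a fold of 2 was used for ratios over peaks with 30 or more fragments. Ratio and CPM intervals are exact binomial and exact Poisson intervals at 95%, for counting error only. Shares have exact binomial intervals that treat peaks, windows or genes as independent draws, although some members lie in dense runs. With 1 library a day no p-value was computed. Doublet scores came from Scrublet in scanpy 1.11.5 at a score of 0.2, since its own thresholds marked 40.1% of D0 and 9.99% of D5 nuclei. Alternatives changed the UMI minimum, marker sum, doublet and class filters, counting per nucleus, scaling (TMM, edgeR 4.0.16), fold, added CPM, peak overlap, distance and RNA limits. Nuclei at a marker sum of 1 or 2 (1844 and 756 at D0, 2399 and 545 at D5) entered neither group, and 691 D0 and 460 D5 nuclei sat at exactly 3. A nucleus was assigned to a class by 3 or more UMIs of 1 marker list and fewer of each other list. The rule was also run on simulated counts with known folds. These held counting error only and no doublets, so that run was a check of the computation alone.

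The members, lists and rule for named peaks were chosen with earlier results of these data known. Named were, per list, up to 6 genes with their strongest member, the 10 highest D0 ratios, the 5 highest and 5 lowest ratios between Ncr1+ and CD3+ nuclei and between days, 3 peaks on each side of the threshold and the 5 densest runs, of which the text gives the leading ones, and some items that the rule names are not reported here. Genes with 5 or more members were added after their values were seen. Sequence had been planned for peak centres, but only RefSeq promoter windows were used, and their 50 bases after the start were left out.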

Additional observations from a re-analysis of the deposited data

Results flagged for a closer look

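Nuclei with a marker sum of 1 or 2 entered neither group, yet many had a share of cut sites in members that nuclei at 0 rarely reached. At D0, 22.2% of 1736 nuclei at a sum of 1 and 67.4% of 708 nuclei at a sum of 2 had 1% or more of their cut sites in members, against 2.08% at a sum of 0. At D5 it was 7.68% of 2163 and 60.2% of 517, against 0.378%. The limit of 1% was set after the values had been seen. D0 nuclei at a sum of 0 had been used to choose the members. The median shares of cut sites in members were 0.209% at D0 and 0.136% at D5 at a sum of 1, close to the 0.170% and 0.129% at a sum of 0, and 1.80% and 1.53% at a sum of 2.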

How the results depend on the processing

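Of 59 alternative values, 28 stayed within the interval of the value reported, or for the number of members within 1.5 times of it, 30 moved and 1 changed sign. The 28 include the values at limits of 30 and of 120 cut sites, which could not change. The fold and the added CPM alone left no member under 206 cut sites. Without nuclei at the doublet score there were 4231 members, with a median D5 log2 ratio of 4.44 and 85.5% of the 3934 matched ones meeting the rule at D5. Over the 1988 members as reported, the same filter gave a D5 over D0 median of 0.50 and 36.2% of nearest genes with higher RNA (6.51% of all genes). Without NK/T nuclei of another class, an alternative chosen after seeing the data, there were 4691 members, with 87% of 4317 matched ones meeting the rule. Over the members as reported it gave 0.11 and 37.8% (7.13%), and the Ncr1+ over CD3+ median turned from 0.03 to -0.04. A fold of 8 left 188 members, with a median of 5.11, 99.5% with a D5 peak and 25% within 2 kb of a start site. Adding 1 CPM left 926 members, with 4.44 and 98.8%. A marker sum of 5 or more gave 1902 members, with a median of 4.25. With each nucleus counted once per peak there were 2745, with 4.00, and 93.3% of 2625 matched ones met the rule. From 2000 UMIs there were 1526, and 96.6% of 1489 matched ones met it. TMM factors gave 2558 members, with 4.29 after a shift of all D5 log2 ratios by 0.28. Over the members as reported, TMM factors gave 0.07 for Ncr1+ over CD3+ and 0.35 for D5 over D0, after shifts by 0.04 and 0.15. D5 over D0 was 0.17 in Ncr1+ and 0.12 in CD3+ nuclei. The share near a start site was 17.8% at 1 kb, 41.5% at 10 kb and, added later, 11.1% to either end of the span. Higher RNA was found for 13.1% of nearest genes at 4-fold (1.44% of all) and 20.1% with no UMI minimum (1.94%). The cause of these changes was not tested, beyond what a stricter or wider limit does by itself.

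Leaving out NK/T nuclei with 2 or more dendritic cell or macrophage UMIs gave no value, since 2 such nuclei remained at D0 and 0 at D5. No paired analysis was possible because each day is 1 library, and for the same reason no replicate was left out. Depth limited the Ncr1+ and CD3+ comparison, where 73 of 1937 matched members had under 30 fragments.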
